A study of Mus musculus with 5 samples.

Results

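The genes described here are the interleukin 1 family ligands Il1a, Il1b, Il1rn, Il33 and Il18, the receptor chains Il1r1, Il1rap and Il1rl1, and the cytokine Il6. The 9 genes were listed by name. A gene was measured by its probe set that carries that 1 symbol, the brightest where several exist. Of the 9 genes, 7 had such a probe set, 1 each, out of 19938 genes measured on the arrays. Il1r1 and Il1rl1 are not analysed here.

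Interleukin 1 alpha and interleukin 1 beta, encoded by Il1a and Il1b, are inflammatory ligands that signal through a receptor pair made of a ligand-binding chain and the accessory chain encoded by Il1rap. Il1rn encodes the receptor antagonist, which occupies the ligand-binding chain without recruiting the accessory chain. Il33 and Il18 encode relatives that use their own binding chains, and interleukin 33 also needs the Il1rap product. In fibroblasts, interleukin 1 signalling runs through Myd88 and NF-kappaB and is known for inducing Il6, chemokines and matrix proteases.

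Each of the 5 groups was 1 array of total RNA, hybridised to a whole-transcript mouse array. Mouse embryonic stem cells (ESCs) gave 2i ESCs and S ESCs, and mouse embryonic fibroblasts (MEFs) gave the 2i MEFs named 4n and 2n and, beside them, control MEFs. The background of every sample was an F1 of the 129X1/SvJ and MSM/Ms strains, and the study's title concerns female ESCs. The labels give no age, passage or pooling and do not spell out S, 2n or 4n, and 2i commonly names a medium that inhibits the kinases MEK and GSK3. Sample titles give the number 15 to 2i ESCs and also to 2n 2i MEFs, 36 to S ESCs, 2 to 4n 2i MEFs and 4 to control MEFs.

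With 1 array per group no pair of arrays could be tested, and the number of arrays limits the precision. Levels are deposited linear intensities, and a difference is that of log2(intensity + 1). The floor of an array was the middle value of its one-gene probe sets (221.6 to 242.1 intensity units), and a gene entered the comparison of a pair if the brighter of the pair reached its own floor. As a gauge of unexpressed genes, the 95th percentile of 1035 probe sets of olfactory receptor genes, which are silent in most tissues, lay between 91.4 and 106.7. The labelled cell types matched their markers in level. All 8 ESC markers were at the floor or above in both ESC groups and none was in a MEF group. All 10 fibroblast markers were at the floor or above in every MEF group. Of these, 5 were also on the 2i ESC array and 6 on the S ESC array. Fibroblast marker sums were 11568 and 13404 on those ESC arrays, against 68185 to 88817 on the MEF arrays. The 4n 2i MEF array stood apart, since 14 of 17 macrophage markers reached its floor, against 3 of 17 on the 2n 2i MEF array and 3 of 17 on the control MEF array. Their summed intensity was 29115 on the 4n 2i MEF array, 2527 on the 2n 2i MEF array and 3162 on the control MEF array. Between MEF arrays many deposited values were identical (37.4% to 45.4% of probe sets), so an exact difference of 0 is not read as measured equality. RNA of a mixed culture cannot tell fewer cells of a type from less RNA per cell.

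The antagonist gene Il1rn (Entrez Gene 16181) was bright in the MEFs named 2i and dim elsewhere. Its intensity was 73.8 on the 2i ESC array, 69.1 on the S ESC array, 1303 on the 2n 2i MEF array, 1664 on the 4n 2i MEF array and 100.7 on the control MEF array. Only the 2i MEF arrays reached the floor, and the control MEF value lay just above the olfactory receptor gauge (93.9 on that array). The excess over control MEFs was 12.8-fold on the 2n 2i MEF array (log2 difference 3.68) and 16.4-fold on the 4n 2i MEF array (4.03). The dim value holds an unknown part of background. With control MEFs set at their floor the excess was at least 5.88-fold on the 2n 2i MEF array and at least 7.51-fold on the 4n 2i MEF array.

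Il1rn is transcribed from separate starts, which give secreted and intracellular forms, and its 1 probe set does not separate them. The promoter windows below are shown for Il1rn, Il33 and Il6, the members with the widest differences among MEF arrays. They come from RefSeq (GRCm38.p6), run from 250 bases before to 50 bases after an annotated start, and are written 5′ to 3′ on the gene's strand. Capitals mark letters that match NF-kappaB (GGG, any 3 bases, TTCC), AP-1 (TGANTCA) or C/EBP (TTGCNNAA) motifs on either strand. The first Il1rn window is chr2:24336610-24336909 (plus strand), the most downstream of its 3 windows (here its last start) is chr2:24345121-24345420 (plus strand), the Il33 windows are chr19:29924863-29925162 and chr19:29945540-29945839 (plus strand), and the Il6 window is chr5:30012864-30013163 (plus strand).
Il1rn first start: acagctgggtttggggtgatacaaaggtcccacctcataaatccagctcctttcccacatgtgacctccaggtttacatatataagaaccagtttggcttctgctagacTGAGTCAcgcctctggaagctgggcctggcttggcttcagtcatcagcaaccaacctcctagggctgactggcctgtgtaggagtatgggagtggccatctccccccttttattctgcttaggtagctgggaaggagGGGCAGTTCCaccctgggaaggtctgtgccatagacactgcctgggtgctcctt
Il1rn last start: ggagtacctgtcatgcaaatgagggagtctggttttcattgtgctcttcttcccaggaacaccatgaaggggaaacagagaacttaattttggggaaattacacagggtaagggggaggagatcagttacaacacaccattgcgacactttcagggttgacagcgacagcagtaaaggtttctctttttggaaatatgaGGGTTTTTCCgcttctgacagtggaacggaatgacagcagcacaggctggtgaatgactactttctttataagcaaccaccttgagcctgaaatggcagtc
Il33 first start: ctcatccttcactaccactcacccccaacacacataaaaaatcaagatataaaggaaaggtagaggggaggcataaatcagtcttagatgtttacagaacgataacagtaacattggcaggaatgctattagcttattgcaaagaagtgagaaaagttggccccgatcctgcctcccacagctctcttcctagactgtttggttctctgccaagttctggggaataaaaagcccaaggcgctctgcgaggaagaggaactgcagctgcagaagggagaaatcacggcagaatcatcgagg
Il33 second start: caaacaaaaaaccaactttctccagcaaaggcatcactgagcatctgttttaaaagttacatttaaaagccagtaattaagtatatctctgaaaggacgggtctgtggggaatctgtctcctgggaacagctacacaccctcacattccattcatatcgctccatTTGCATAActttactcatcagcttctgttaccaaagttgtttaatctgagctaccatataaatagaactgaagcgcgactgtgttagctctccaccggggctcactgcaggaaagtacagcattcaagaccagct
Il6: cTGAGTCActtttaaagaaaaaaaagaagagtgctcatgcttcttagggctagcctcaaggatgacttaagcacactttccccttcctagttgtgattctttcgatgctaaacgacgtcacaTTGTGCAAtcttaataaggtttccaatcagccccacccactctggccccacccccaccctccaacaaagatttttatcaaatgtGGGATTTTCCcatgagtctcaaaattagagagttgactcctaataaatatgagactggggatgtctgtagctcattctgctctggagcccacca
The motifs are common. Of 32851 promoter windows in the table, 5.56% hold the NF-kappaB letters, 7.81% the AP-1 letters and 10.8% the C/EBP letters. No matches overlapped in these windows. The Il6 window held 1 match to each motif, the first Il1rn window 1 to NF-kappaB and 1 to AP-1, and the last Il1rn window 1 to NF-kappaB. The second Il33 window had 1 C/EBP match, and the first had none. Of the other members, the Il1a window had 1 AP-1 match, and the Il1b, Il18 and Il1rap windows had none. CpG dinucleotides, the sites of DNA methylation, were few: 1 and 4 in the Il1rn windows shown, 6 and 5 in the Il33 windows and 3 in the Il6 window, where the median over all windows was 7. The Il1rap window held 33. These are counts of letters, and methylation is not analysed here.

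The agonist genes Il1a and Il1b stayed under the olfactory receptor gauge on all 5 arrays. Il1a (Entrez Gene 16175) had 46.1 intensity units on the 2i ESC array, 41.8 on the S ESC array, 33.3 on the 2n 2i MEF array, 70.0 on the 4n 2i MEF array and 38.8 on the control MEF array. Il1b (Entrez Gene 16176) had 76.2 on the 2i ESC array, 89.0 on the S ESC array and the same deposited value, 61.9, on each MEF array. No difference in either gene can be read at these levels. The 4n 2i MEF value of Il1a was the highest of its 5 values, and 89.4% of olfactory receptor probe sets on that array were dimmer.

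Il33 (Entrez Gene 77125), whose product is a nuclear cytokine released by damaged stromal and barrier cells, reached the floor on the 4n 2i MEF array alone. It had 57.0 intensity units on the 2i ESC array, 56.3 on the S ESC array, 120.6 on the 2n 2i MEF array, 573.5 on the 4n 2i MEF array and 72.4 on the control MEF array. The excess on the 4n 2i MEF array was 7.83-fold over control MEFs (log2 difference 2.97) and 4.72-fold over 2n 2i MEFs (2.24). With the dim array set at its floor, it was at least 2.59-fold over control MEFs and at least 2.48-fold over 2n 2i MEFs. The 2n 2i MEF value was above the gauge but under the floor, and its log2 difference from control MEFs was 0.73.

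Il18 (Entrez Gene 16173), whose product is stored as a precursor and promotes interferon gamma production, was under the floor everywhere but above the gauge on every MEF array. It had 32.9 intensity units on the 2i ESC array, 35.4 on the S ESC array, 147.2 on the 2n 2i MEF array, 166.3 on the 4n 2i MEF array and 110.2 on the control MEF array. The MEF arrays lay within 2-fold of each other, and each was above both ESC arrays. The log2 differences were 0.42 for 2n 2i MEFs against control MEFs and 0.59 for 4n 2i MEFs against control MEFs.

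Il1rap (Entrez Gene 16180), the shared accessory chain, was above the gauge on all 5 arrays and reached the floor on the 3 MEF arrays. Its intensity was 191.2 on the 2i ESC array, 136.9 on the S ESC array, 416.8 on the 2n 2i MEF array, 296.7 on the 4n 2i MEF array and 552.8 on the control MEF array. The log2 differences were -0.41 for 2n 2i MEFs against control MEFs, -0.90 for 4n 2i MEFs against control MEFs and -0.49 for 4n 2i MEFs against 2n 2i MEFs, all within 2-fold. Every MEF value was above every ESC value.

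Il6 (Entrez Gene 16193), the secreted cytokine that signals through gp130, lay above the control MEF value on one 2i MEF array and below it on the other. It had 25.1 intensity units on the 2i ESC array, 26.3 on the S ESC array, 199.2 on the 2n 2i MEF array, 54.0 on the 4n 2i MEF array and 142.7 on the control MEF array. No value reached the floor, so Il6 entered no comparison at that setting. The 2n 2i MEF and control MEF values were above the gauge, and the 4n 2i MEF value lay under it. The log2 difference from control MEFs was 0.48 on the 2n 2i MEF array and -1.39 on the 4n 2i MEF array, and it was -1.87 for 4n 2i MEFs against 2n 2i MEFs. With the 4n 2i MEF array set at the gauge, Il6 was at least 1.55-fold lower there than on the control MEF array and at least 2.16-fold lower than on the 2n 2i MEF array.

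**Figure D1:**
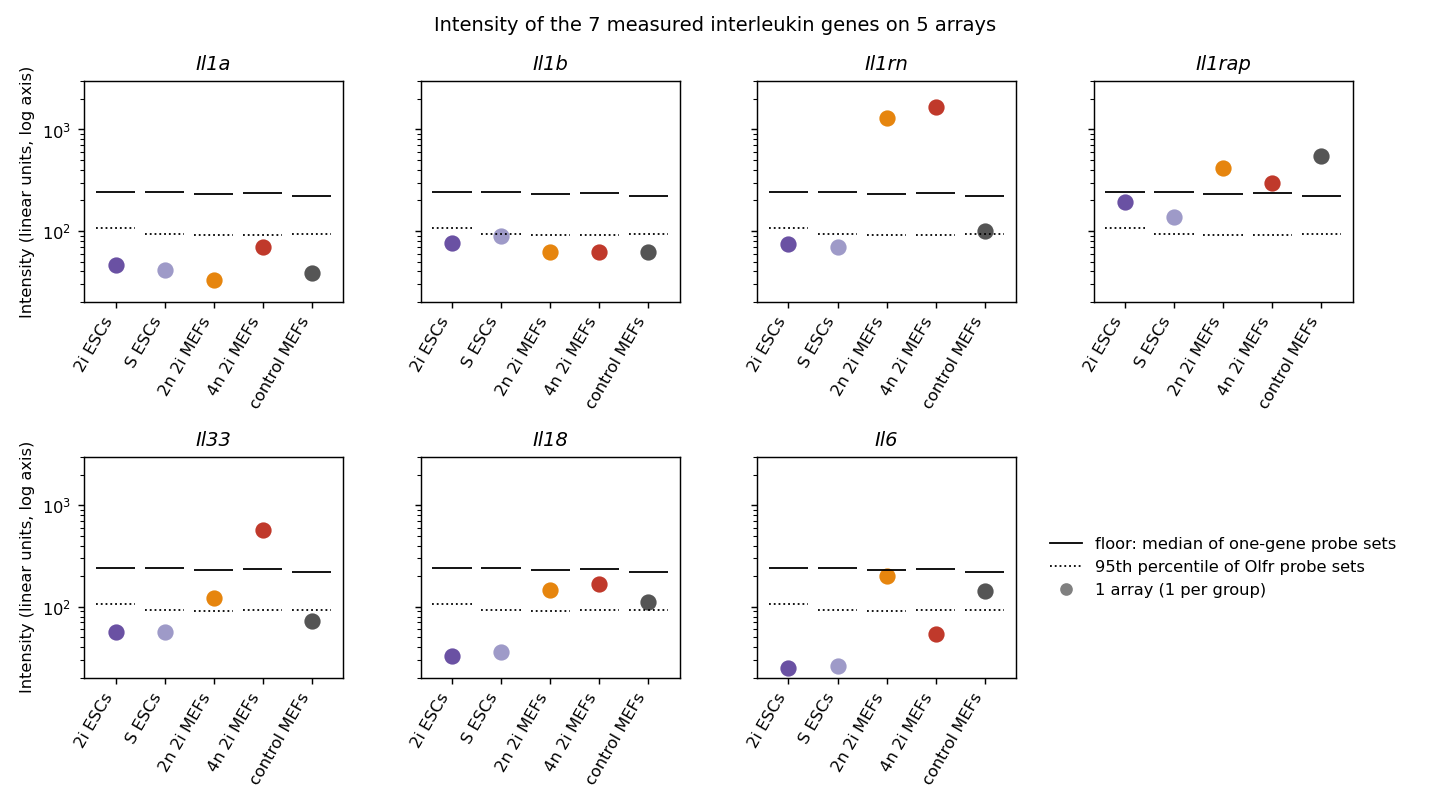
Intensity (linear units, log axis) of the 7 measured genes on the 5 arrays, 1 point per array and no replicates, with each array's floor (solid) and the 95th percentile of olfactory receptor probe sets (dotted). Il1rn stands at 1303 and 1664 on the 2i MEF arrays against 100.7 on the control MEF array, Il33 at 573.5 on the 4n 2i MEF array, and Il1a and Il1b lie under the dotted line throughout.

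By comparison, none of the 7 measured members entered that of 2i ESCs against S ESCs, where 5.34% of 10458 genes differed at least 2-fold (2.79% higher and 2.54% lower). Their log2 differences ran from -0.22 (Il1b) to 0.48 (Il1rap), and Il1rap was the one member above the gauge on an ESC array. For 2n 2i MEFs against control MEFs 2 members entered, and 1 (Il1rn) was at least 2-fold higher, where 1.49% of 10127 genes were. For 4n 2i MEFs against control MEFs 3 entered and 2 (Il1rn and Il33) were at least 2-fold higher, where 5.27% of 10312 genes were. For 4n 2i MEFs against 2n 2i MEFs 3 entered and 1 (Il33) was at least 2-fold higher, where 3.35% of 10266 genes were. Il1rn and Il33 entered these comparisons only through the 2i MEF arrays on which they were bright, so the counts are a description and support nothing further. The last 3 comparisons share arrays and are not independent. With the gauge in place of the floor, 5 members entered each MEF comparison. Il6 was then lower beyond 2-fold on the 4n 2i MEF array in both comparisons of that array, where 2.59% and 1.80% of genes were. Its 4n 2i MEF value lay under the gauge, so Il6 entered through the other array alone and the filter nearly fixed that direction. With the 4n 2i MEF array set at the gauge, the deficit against control MEFs was at least 1.55-fold, short of 2-fold.

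**Figure D2:**
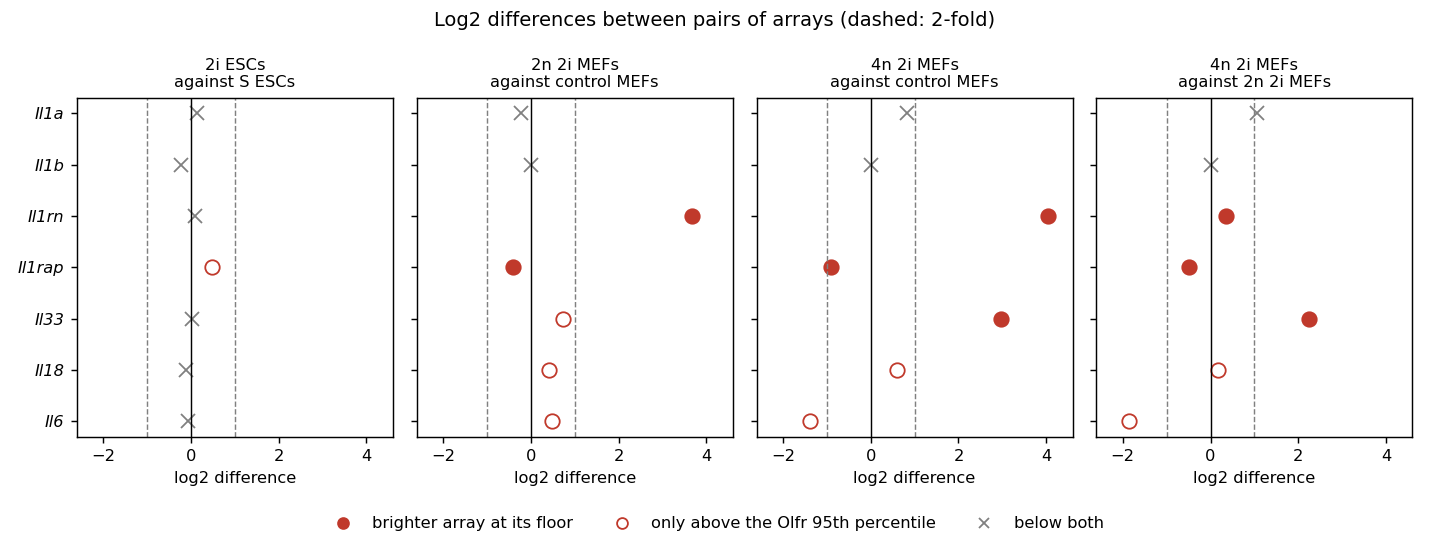
Log2 differences of the 7 measured genes (rows) between 4 pairs of arrays (panels), first-named array minus second, 1 array each, with 2-fold dashed. Filled points had their brighter array at the floor, open points were above the olfactory receptor gauge alone, and crosses were under both, and Il1rn lies at 3.68 and 4.03 against control MEFs.

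Across cell types, the 2 ESC arrays were set against the 3 MEF arrays with limma over 11827 genes. Of these, 16.6% were called higher and 16.3% lower in ESCs. The members that entered, Il1rap, Il1rn and Il33, reached the floor on MEF arrays alone, so the filter favoured a lower call in ESCs. Il1rap was lower in ESCs, at 7.35 ± 0.34 (log2 level, SD, n = 2) against 8.68 ± 0.45 (SD, n = 3) in MEFs, a log2 difference of -1.33 ± 0.32 (SE) with an adjusted p of 0.0229 in limma. All 3 MEF arrays were above both ESC arrays. Leaving out the 2i ESC, S ESC or 2n 2i MEF array ended that call, with adjusted p values in limma of 0.0953, 0.173 and 0.0680. Il1rn did not pass, at 6.18 ± 0.07 (SD, n = 2) in ESCs against 9.24 ± 2.23 in MEFs (SD, n = 3), and its adjusted p in limma was 0.116. Without the 2n 2i or 4n 2i MEF array, its adjusted p in limma was 0.245 or 0.219. Without the 2i ESC or S ESC array, its log2 difference was -3.11 or -3.02. Without the control MEF array, its dimmest MEF array, the log2 difference of Il1rn was -4.35, with an adjusted p of 0.00292 in limma. That fit keeps only the MEF arrays on which Il1rn reached the floor, so nothing is read from its small p. Il33 did not pass either, with a log2 difference of -1.58 ± 0.94 (SE) and an adjusted p of 0.210 in limma. The spread in this test is that between conditions, since each group is 1 array and the labels name no separate cultures.

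Il18 and Il6 were tested with the gauge in place of the floor, over 15415 genes, of which 13.1% were lower in ESCs. Both were under the gauge on both ESC arrays and entered through MEF arrays alone, so the filter favoured a lower call in ESCs. Il18 was lower in ESCs, at 5.13 ± 0.07 (log2 level, SD, n = 2) against 7.13 ± 0.30 in MEFs (SD, n = 3), and its adjusted p in limma was 0.00252, or 0.00353 with no floor. It passed with each of the 5 arrays left out, with adjusted p values in limma from 0.00490 to 0.0342. Il6 had a log2 difference of -2.12 ± 0.61 (SE) and an adjusted p of 0.0420 in limma, which was 0.0514 with no floor. Its call was lost without the 2i ESC, S ESC, 2n 2i MEF or control MEF array (adjusted p in limma from 0.0842 to 0.209), and without the 4n 2i MEF array it was 0.00421.

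Other genes of the pathway were followed through lists. None of 5 other ligand genes of the family measured, which include the interleukin 36 genes, reached a floor on any array, nor did Il18bp, which encodes a soluble inhibitor of interleukin 18. Of 7 other receptors of the family, 2 were tested and both passed. Il1rl2 reached the floor on MEF arrays alone and Sigirr on ESC arrays alone, so the filter favoured the direction of each. The interleukin 36 receptor gene Il1rl2 was 10.3-fold lower in ESCs, with 65.1 intensity units on the 2i ESC array and 61.7 on the S ESC array against 704.4, 497.2 and 820.0 on the 2n 2i, 4n 2i and control MEF arrays (adjusted p = 0.000858 in limma). Sigirr, a negative regulator of these receptors, was 3.95-fold higher in ESCs (494.6 and 552.0 against 131.6 on each MEF array, adjusted p = 0.000349 in limma). The identical MEF values of Sigirr hold no measured spread. The same holds for P2rx7 and Nlrp3 below. Aim2, Capn1, Icam1 and Clcf1 below share a deposited value on a pair of MEF arrays, so their MEF spread is partly unmeasured.

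Genes that process these cytokines differed by cell type in both directions. Of 16 measured, 8 were tested, 4 were higher in ESCs (Aim2, Pycard, P2rx7 and Nlrp3) and 3 lower (Capn2, Casp8 and Capn1). Over all genes tested, 16.6% were higher and 16.3% lower. The 4 higher ones reached the floor on ESC arrays alone, so the filter favoured that direction. The DNA sensor gene Aim2 had 1228 intensity units on the 2i ESC array and 1463 on the S ESC array, against 83.9 to 91.6 on the MEF arrays (15.3-fold, adjusted p = 0.000195 in limma). Pycard, the inflammasome adaptor, was 7.95-fold higher in ESCs (adjusted p = 0.00114 in limma), while Capn2, a calpain protease, was 12.5-fold lower (adjusted p = 0.00188 in limma). Casp8, the initiator caspase of death receptors, was 6.23-fold lower (adjusted p = 0.00342 in limma). Casp1, which cleaves the precursors of interleukin 1 beta and interleukin 18, was under the floor on every array, from 37.3 to 41.9 intensity units. P2rx7, the ATP-gated channel that triggers the inflammasome, was 2.45-fold higher on the 2i ESC array than on the S ESC array (1908 against 778.1). In the MEF comparisons 4 (2n 2i against control), 4 (4n 2i against control) and 3 (4n 2i against 2n 2i) of the 16 processing genes entered and none differed 2-fold, too few to set against the shares over all genes.

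All 12 genes measured from the receptor to its kinases entered every comparison, and none differed 2-fold between any of the 4 pairs of arrays. With 12 genes, the shares over all genes given above would leave few or none past 2-fold, so nothing is read from that count. Between ESCs and MEFs, 2 were higher in ESCs, Peli1 (2.50-fold) and Tab3 (2.23-fold), and 1 was lower, the adaptor gene Myd88 (4.89-fold, adjusted p = 0.00175 in limma). Nothing is read from these counts either, since 16.6% of all genes tested were higher and 16.3% lower. Of 11 NF-kappaB genes tested, 4 were lower in ESCs (Rela, Nfkb2, Nfkbiz and Ikbkb) and none higher, beside those same shares. The 4 included the subunit gene Rela (3.42-fold, adjusted p = 0.000842 in limma) and Nfkbiz (3.57-fold, adjusted p = 0.0160 in limma), a nuclear cofactor needed for Il6 induction. Nfkbiz reached the floor on MEF arrays alone, so the filter favoured its lower call. For 4n 2i MEFs against control MEFs, 1 of 11 was at least 2-fold higher, Bcl3 (1771 against 804.2 intensity units), and 1 lower, Nfkbiz (397.5 against 887.9). Of all genes entered there, 5.27% were higher and 3.43% lower.

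The interleukin 1 response genes of fibroblasts split on the 4n 2i MEF array. Of 11 that entered against control MEFs, 2 were at least 2-fold higher and 5 lower, where 5.27% and 3.43% of genes were, and their median log2 difference was -0.85, against -0.01 over all genes entered. The higher ones were the collagenase gene Mmp13 (1224 intensity units on the 4n 2i MEF array against 115.1 on the control MEF array) and the acute phase gene Saa3 (664.6 against 67.5). Both were under the floor on the control MEF array, and Saa3 also on the 2n 2i MEF array. Against an array where a gene was under the floor, the filter nearly fixed its direction. Ptgs2, the inducible cyclooxygenase gene, had 867.2 on the 4n 2i MEF array against 7324 on the control MEF array, an 8.44-fold deficit. The chemokine gene Ccl7 had 1835 against 9047 (4.93-fold lower). The other 3, named after their values were seen, were the chemokine genes Ccl2 (log2 difference -1.82) and Cxcl1 (-1.51) and the prostaglandin E synthase gene Ptges (-1.03). On the 2n 2i MEF array the list had a median log2 difference of -0.19, against 0.00 over all genes entered. At least 2-fold higher was 1 of 10, Mmp13 (320.9 against 115.1), where 1.49% of genes were. No gene of the list was 2-fold lower there, where 0.425% of genes were, Ptgs2 stood at 7667 against 7324 on the control MEF array, and Ccl2 came closest at -0.97. For 4n 2i MEFs against 2n 2i MEFs, 2 of 11 were at least 2-fold higher (Saa3 and Mmp13) and 2 lower (Ptgs2 and Ccl7), where 3.35% and 2.36% of genes were. For 2i ESCs against S ESCs 4 entered, of which Ptges was at least 2-fold higher (895.5 against 405.4) and Ccl7 lower (132.6 against 303.7). There 2.79% of genes were higher and 2.54% lower. In ESCs 6 of 11 tested were lower than in MEFs and 1, the adhesion molecule gene Icam1, higher. Over all genes tested, 16.3% were lower and 16.6% higher. Ccl2 was 29.7-fold lower (adjusted p = 0.00418 in limma) and Vcam1, another adhesion molecule gene, 28.4-fold lower (adjusted p = 0.00140 in limma). Both, like most genes of this list that were tested, reached the floor on MEF arrays alone, so the filter favoured lower calls. The count of lower genes is therefore not read as a result about the list.

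**Figure D3:**
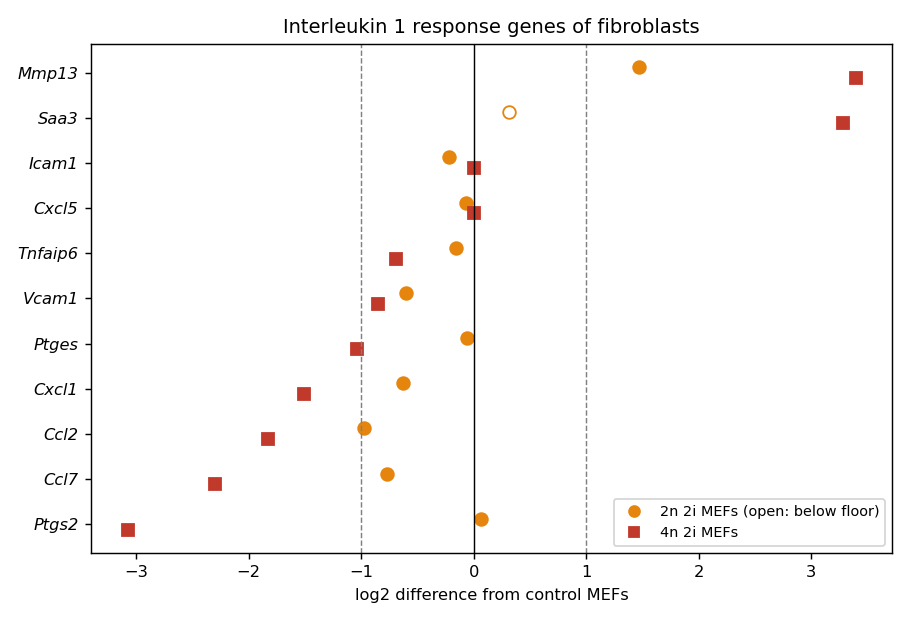
Log2 difference from the control MEF array (x axis) of the 11 interleukin 1 response genes (rows) that entered for 4n 2i MEFs, with 2n 2i MEFs (circles, open where under the floor) and 4n 2i MEFs (squares), 1 array each and 2-fold dashed. Mmp13 and Saa3 lie to the right and Ptgs2, Ccl7, Ccl2, Cxcl1 and Ptges beyond 2-fold to the left on the 4n 2i MEF array.

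On the receiving side of Il6, the shared signal chain gene Il6st (gp130) entered every comparison and lay within 2-fold in each pair of arrays. Il6ra, the ligand-binding chain, was 2.83-fold higher on the 2i ESC array than on the S ESC array (668.8 against 235.4 intensity units). The S ESC value was under that array's floor (242.1), so the filter favoured its higher direction. Of 9 genes of its list that entered there, it was the 1 at least 2-fold higher and 0 were lower. Of all genes entered, 2.79% were higher and 2.54% lower. All 11 genes measured of interleukin 6 receptors and signalling entered both comparisons with control MEFs. For 2n 2i MEFs 1 was at least 2-fold higher, the leukaemia inhibitory factor receptor gene Lifr (460.2 against 206.8), where 1.49% of genes were. For 4n 2i MEFs 2 were, Lifr (544.2 against 206.8) and the ciliary neurotrophic factor receptor gene Cntfr (1907 against 443.6), where 5.27% of genes were. None was 2-fold lower in either, where 0.425% and 3.43% of genes were. Lifr was under the floor on the control MEF array, so the filter favoured its higher direction. In ESCs 4 of 11 were lower than in MEFs (Osmr, Jak2, Jak1 and Stat3), led by the oncostatin M receptor gene Osmr (30.3-fold, adjusted p = 0.00308 in limma). Another 1 was higher, the feedback inhibitor gene Socs3 (2.55-fold, adjusted p = 0.00663 in limma). Of all genes tested, 16.3% were lower and 16.6% higher. Osmr and Jak2 reached the floor on MEF arrays alone, so the filter favoured their lower calls. Of 3 tested ligand genes of the interleukin 6 family, Osm was 5.34-fold higher in ESCs (adjusted p = 0.000961 in limma) and Clcf1 2.71-fold lower (adjusted p = 0.000490 in limma). Osm reached the floor on ESC arrays alone and Clcf1 on MEF arrays alone, so the filter favoured both calls.

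Markers of other cell types moved with some of these values. For mesothelial markers, 6 of 7 reached the floor on the 2n 2i MEF array, 6 of 7 on the 4n 2i MEF array and 2 of 7 on the control MEF array, and their summed intensity was 5189, 8600 and 1684 on those arrays. Il1rn was bright on the same 2i MEF arrays. Of the markers at the floor on the control MEF array, Upk1b had 1739 on the 2n 2i MEF array and 2672 on the 4n 2i MEF array against 396.7 on the control MEF array, and Krt19 had 588.4 and 491.0 against 620.5. The others that entered passed the floor only through the 2i MEF arrays. Upk3b, a urothelial and mesothelial membrane protein gene, had 1195 intensity units on the 2n 2i MEF array and 2387 on the 4n 2i MEF array, against 160.0 on the control MEF array. Macrophages also make Il1rn. On the 2n 2i MEF array, where Il1rn stood at 1303, the macrophage sum was 0.799 times that of control MEFs, and on the 4n 2i MEF array it was 9.21 times that sum. Of the 17 macrophage markers, 3 (Cd68, Lyz2 and Cd53) reached the floor on the control MEF array, and these had 4217, 5913 and 1480 intensity units on the 4n 2i MEF array against 443.9, 689.0 and 347.6 on the control MEF array. The others that entered passed the floor through the 4n 2i MEF array alone, so their direction was nearly fixed by the filter, for example C1qb, a complement subunit gene (3820 against 170.9 on the control MEF array). Il33, Il6 and the response genes stood apart on that array too. The part of macrophage or mesothelial cells in any of these differences was not tested. Summed endothelial, keratinocyte and epithelial, and mast cell markers lay between 1.07 and 1.42 times the control MEF sums on the 2i MEF arrays. Single markers in them differed more: the endothelial gene Emcn had 362.1 on the 2n 2i MEF array against 58.9 on the control MEF array. On the 4n 2i MEF array the keratin gene Krt14 had 583.8 against 142.1 on the control MEF array, and the desmosome gene Dsp had 84.2 against 234.6. Emcn, Krt14 and Dsp were each under the floor on the dimmer array, so the filter nearly fixed their directions. Of the 2 endothelial markers that entered for 2n 2i against control MEFs, the one beside Emcn lay below control MEFs, within 2-fold.

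**Figure D4:**
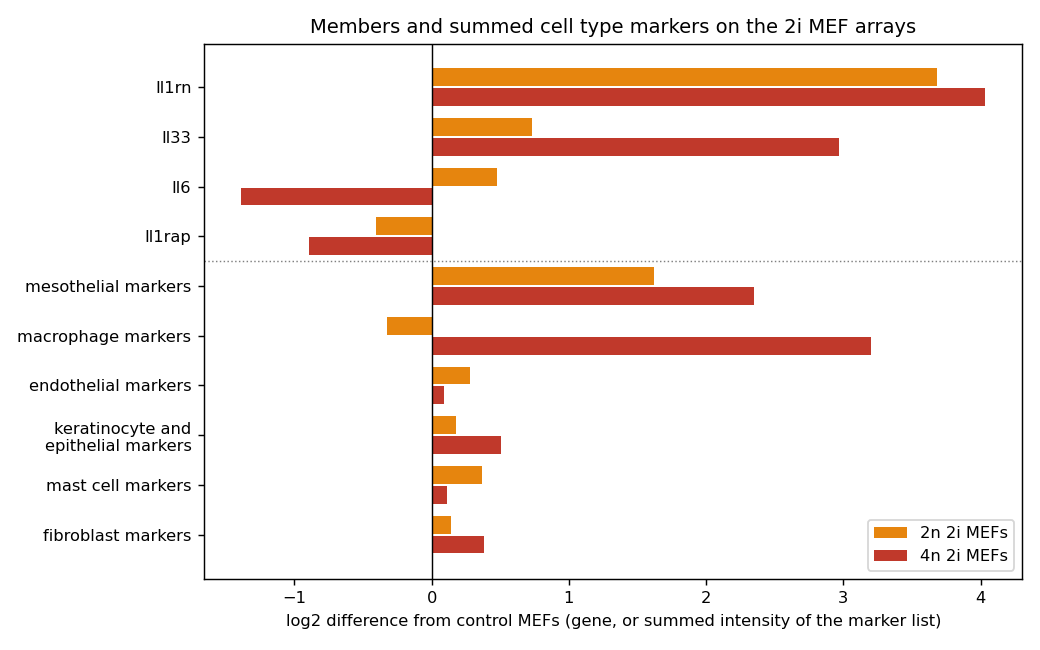
Log2 difference from the control MEF array for 4 members (upper rows) and for the summed intensity of 6 marker lists (lower rows), with 2n 2i MEFs above 4n 2i MEFs in each row, 1 array each. Mesothelial sums are higher on both 2i MEF arrays (3.08 and 5.11 times the control MEF sum), and the macrophage sum on the 4n 2i MEF array (9.21 times).

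The genes most like each member over the 5 arrays were found by the Euclidean distance between mean-centred log2 levels, among 11372 named genes at the floor on at least 1 array. For Il1rn they were Upk3b (distance 0.89), Cthrc1 (1.12), a secreted glycoprotein gene, and the carbonyl reductase gene Cbr2 (1.31). For Il33 they were Cxcl15 (0.20), Gjc3 (0.27) and Pcdh20 (0.32), each of which had its highest level on the 4n 2i MEF array. For Il1rap they were Frmd6 (0.13), Rai14 (0.13) and Amotl2 (0.17), each with its highest level on the control MEF array. The shared highest arrays follow from choosing genes by their distance over these same arrays. The 5 arrays are few and share their cell types, so likeness describes these samples.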

How the data were processed

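The authors deposited linear intensity values, 1 column for each of 5 arrays and 28853 probe sets. Per the labels' protocols, total RNA was labelled with biotin for these whole-transcript arrays. Background correction, summarising and normalization by the authors are not given in the sources used here. A probe set was used where the platform table names 1 gene (21789 of them, beside 1621 with several genes and 5443 without one). Entrez Gene numbers tied 21698 of these to current RefSeq symbols (GRCm38.p6). Differences are of log2(intensity + 1), with a 2-fold threshold between single arrays. ESC arrays (2) were set against MEF arrays (3) in limma 3.58.1 under R 4.3.3, by lmFit and eBayes with 3 residual degrees of freedom. A gene was tested where any array reached its floor, and called at a Benjamini-Hochberg adjusted p below 0.05 with a difference of 2-fold or more. The fit was also run on simulated data with a common spread for all genes, unlike these arrays, so that run checks the code alone. The members, lists and tests were chosen with earlier results of these data known, and the motifs after the promoters were seen. Named genes are all measured members, up to 4 genes of each list per comparison with the largest differences past the threshold, and 3 nearest genes for each member at the floor whose log2 levels span at least 1.5. Ccl2, Cxcl1, Ptges, Icam1, Nlrp3, Capn1, Stat3, Casp1, Il6st, Il18bp, P2rx7 (between ESCs and MEFs) and the markers Cd68, Lyz2, Cd53, Krt19 and Upk1b as present in control MEFs were named outside that rule, after their values were seen. Other floors, quantile normalization, median centring, probe set means, a pseudocount of 16, a 3-fold threshold, a trended robust prior, leaving out each array and leaving out genes with identical MEF values were tried. Python 3.11.15, pandas 2.3.3 and numpy 2.4.6 were also used.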

Additional observations from a re-analysis of the deposited data

Results flagged for a closer look

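Il6 and Il1a had opposite signs on the 2n 2i MEF and 4n 2i MEF arrays when each was set against the control MEF array, and the difference was not tested, since each group was 1 array. For Il6 the log2 difference from control MEFs was -1.39 on the 4n 2i MEF array and 0.48 on the 2n 2i MEF array, so that 4n 2i MEFs minus 2n 2i MEFs came to -1.87. For Il1a it was 0.83 on the 4n 2i MEF array and -0.22 on the 2n 2i MEF array, a difference of 1.05, with every value of Il1a under the 95th percentile of olfactory receptor probe sets.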

How the results depend on the processing

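Floors and pseudocounts cannot change the sign of a difference, and each member had 1 probe set, so those settings could not alter a direction. Under quantile normalization and median centring, which could, the differences of Il1rn and Il33 between MEF arrays kept their direction. For 2n 2i against control MEFs, Il1rn then had log2 differences of 3.59 and 3.62. No member reversed a call. Counts of genes at least 2-fold apart in either direction were 558 (2i ESCs against S ESCs), 194 (2n 2i against control MEFs), 897 (4n 2i against control MEFs) and 586 (4n 2i against 2n 2i MEFs), and 3894 genes were called between ESCs and MEFs. They were 205, 80, 507, 308 and 2451 with the floor at the 75th percentile, and 183, 54, 378, 204 and 2113 at 3-fold. The number of members called moved with the floor. For 4n 2i against control MEFs it was 2, and 1 with the floor at the 75th percentile, where Il33 no longer entered, and 3 with no floor or with the olfactory receptor floor, where Il6 was added as lower. For 4n 2i against 2n 2i MEFs it was 1, and 3 with no floor, 0 at the 75th percentile and 2 with the olfactory receptor floor. Between ESCs and MEFs it was 1 (Il1rap), and 2 with no floor, 0 at the 75th percentile, 3 with the olfactory receptor floor and 0 at 3-fold. Leaving out 1 array at a time gave from 0 to 2 members, and without an ESC array the lone one left is assumed to vary like the MEF arrays. The fits of Il18 and Il6 that join the olfactory receptor floor with a left-out array were chosen after seeing the data. No paired analysis was possible because each group holds 1 array. The dim values contain an unknown part of background, so folds against them are uncertain.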
